A study of Mus musculus with 16 samples.

Results

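Liver RNA of 4 mice labelled RIPK3 triple KO was set against that of 4 WT mice, 8 of the 16 arrays in the series, all chosen by their titles. By their labels, the RIPK3 triple KO mice lacked Traf2 and Casp8 in liver parenchymal cells and lacked Ripk3 in the whole body. WT mice were littermates that kept the loxP-flanked alleles but had no Cre. The other 8 arrays came from 4 TRAF2/Casp8 KO mice, with the same parenchymal deletions and an intact Ripk3, and from 4 IKKβ triple KO mice, with a parenchymal deletion of Ikkβ on top of Traf2 and Casp8. All mice were 7-day-old males on a mixed C57/BL6 - SV129Ola background. The parenchymal deletions were driven by the alfp-Cre transgene, so the other cells of each liver kept Traf2 and Casp8, while Ripk3 was missing from every cell type. The material was whole liver, where fewer cells of a type and less RNA per cell cannot be told apart.

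RIPK3 is the kinase that phosphorylates MLKL and so starts necroptosis, a lytic form of cell death. Caspase-8, the initiator caspase of death receptors, restrains that route. TRAF2 is an adaptor that joins the ubiquitin ligases cIAP1 and cIAP2 to TNF family receptors, where it feeds the canonical NF-κB route through IKKβ. The same TRAF2 and cIAP complex keeps the kinase NIK low and thereby limits the non-canonical NF-κB route, in which the p100 precursor is processed to p52 and pairs with RelB. The comparison asks which transcripts differed from WT in livers that lacked TRAF2 and caspase-8 and had no RIPK3 to run necroptosis.

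The deleted genes were examined as a check of the labels. Values are RMA log2 signals, in which 1 unit is a 2-fold difference. Ripk3 read 4.23, 4.40, 4.16 and 4.07 on the 4 RIPK3 triple KO arrays, against 6.40, 5.65, 5.71 and 5.97 on the WT arrays, and fell by 1.72 ± 0.18 (difference ± SE of the limma contrast, adjusted p = 7.27e-05). Casp8 read 8.71, 8.50, 8.81 and 8.73 in RIPK3 triple KO livers, against 9.80, 9.76, 9.84 and 10.07 in WT livers, and fell by 1.18 ± 0.11 (adjusted p = 2.69e-05). The groups did not overlap for either gene. Traf2 went against its label: it read 7.18, 7.31, 7.53 and 7.26 in RIPK3 triple KO livers and 6.21, 6.23, 6.40 and 6.28 in WT livers, a rise of 1.04 ± 0.09 (adjusted p = 1.33e-05). Where the probes of that set lie relative to the deleted part of Traf2 is not given in the sources used here, so the set does not check the deletion, and group names are those of the labels throughout. Ikbkb, which encodes IKKβ and was not targeted in these mice, differed by 0.30 ± 0.09 (adjusted p = 0.105).

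Array medians lay between 4.90 and 5.05 over the series. Correlations between arrays were 0.984 to 0.990 among RIPK3 triple KO arrays, 0.981 to 0.990 among WT arrays and 0.979 to 0.985 between the groups. The leading principal component, with 15.58% of the variance, placed RIPK3 triple KO arrays at 19.87 to 35.19 and WT arrays at −28.75 to −12.26. WT replicate 1 stood apart on the next component (−50.50) and had the lowest array weight, 0.461. Array names place the RIPK3 triple KO arrays in plate column 7 and the WT arrays in column 5, a reading not checked against a layout, so plate column and genotype cannot be told apart. Hepatocyte markers were at like levels in both groups: the mean of 28 identity and apolipoprotein genes was 10.73 to 10.90 in RIPK3 triple KO livers and 10.75 to 10.89 in WT livers, with albumin (Alb) at 13.30 ± 0.24 and 13.42 ± 0.04 (SD, n = 4 each).

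Of 35556 probe sets, 845 (2.38%) passed an adjusted p of 0.05 between RIPK3 triple KO and WT livers, 527 higher and 318 lower. With each gene represented by its brightest probe set, 585 of 18820 genes passed (3.11%), of which 366 were higher (1.94%) and 219 lower (1.16%), and 123 of the 585 differed at least 2-fold. The median difference over all genes was −0.01. Groups that did not overlap were seen for 1709 genes, or 9.08%. At an unadjusted p under 0.05, 1470 of the 18820 genes were higher and 1459 lower. Counts of list members given below stand beside these counts over all genes. Centring the arrays on their medians gave 932 probe sets, with 71.7% of them higher in place of 62.4%. The number of probe sets passing ran between 425 without WT replicate 3 and 1095 without WT replicate 1, and was 445 without WT replicate 2, 450 without WT replicate 4, 527 without RIPK3 triple KO replicate 1 and 468 without RIPK3 triple KO replicate 3. Of the 585 genes, 254 passed with each of the 8 arrays left out in turn.

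**Figure D1:**
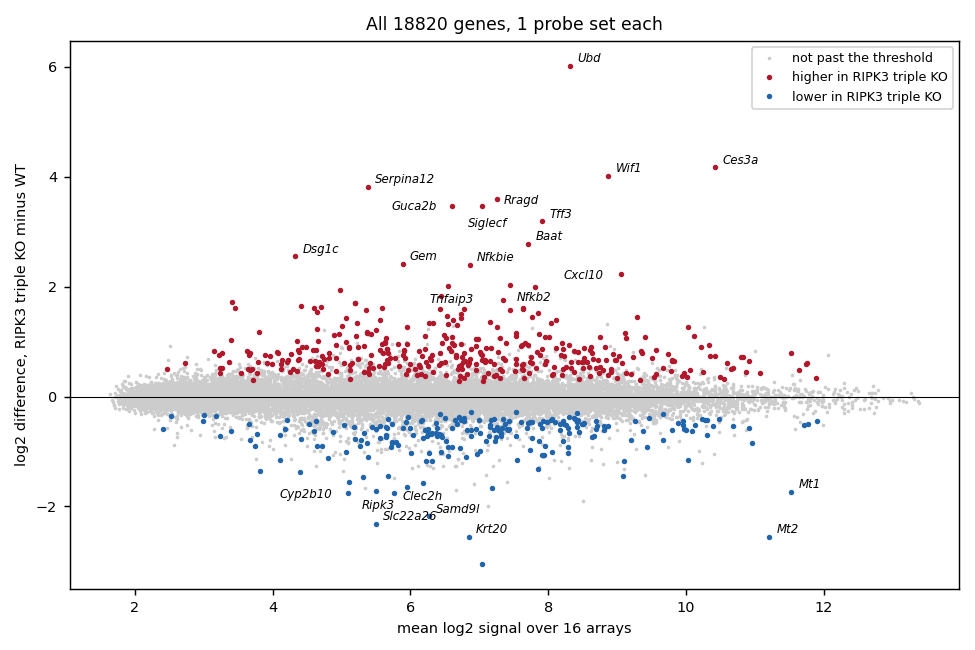
Difference in log2 signal, RIPK3 triple KO minus WT, for 18820 genes (y axis) against the mean log2 signal over all 16 arrays (x axis). Red points are the 366 genes that passed higher and blue points the 219 that passed lower. Ubd stands alone at 6.02, and the labelled rises reach further from 0 than the labelled falls.

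The furthest rise was that of Ubd, which encodes the ubiquitin-like modifier FAT10, induced by TNF and interferon-γ. Ubd read 10.14, 10.38, 10.31 and 9.92 in RIPK3 triple KO livers, against 4.49, 4.09, 4.06 and 4.02 in WT livers. It rose by 6.02 ± 0.23, or 64.9-fold (adjusted p = 2.74e-09). The naming rule for the largest rises and falls took only genes past the threshold with groups that do not overlap. For those genes, non-overlap therefore follows from the rule and is no separate support. The 15 largest rises that met the naming rule ran between 4.01-fold and 64.9-fold, and all 15 passed with each array left out. They include 3 further NF-κB genes: Nfkbie, Nfkb2 and Tnfaip3.

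Canonical NF-κB genes were represented by 17 subunits, kinases and inhibitors, of which 6 rose, with a median difference of 0.30. Nfkbie, which encodes the inhibitor IκBε, read 7.73, 7.61, 8.00 and 8.16 in RIPK3 triple KO livers, against 6.12, 5.32, 5.39 and 5.10 in WT livers, and rose by 2.40 ± 0.22 (5.27-fold, adjusted p = 1.86e-05). Tnfaip3, the ubiquitin-editing inhibitor A20, read 6.95, 7.29, 7.48 and 7.33 in RIPK3 triple KO livers, against 5.93, 5.20, 4.95 and 4.96 in WT livers, and rose by 2.00 ± 0.22 (4.01-fold, adjusted p = 0.000109). The groups did not overlap for either inhibitor, and both passed with each array left out. The remaining 4 rises were smaller: Ikbke, an IKK-related kinase, by 0.94 ± 0.19 (adjusted p = 0.0172), Tnip1, a partner of A20, by 0.92 ± 0.19 (0.0223), Nfkbiz by 0.82 ± 0.17 (0.0224) and Nfkbib by 0.64 ± 0.14 (0.0231). None of these 4 passed without WT replicate 2, 3 or 4, where the count of rises was 2, and it was 3 without RIPK3 triple KO replicate 4. Nfkbia, which encodes IκBα, was at 9.35 ± 0.31 in RIPK3 triple KO livers and 8.30 ± 0.35 in WT livers (adjusted p = 0.0687) and passed only without WT replicate 1. Rel, a canonical subunit, differed by 0.03 ± 0.14 (adjusted p = 0.949).

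Non-canonical NF-κB genes included 7 of 15 that rose, 6 of them other than Traf2, with a median difference of 0.61. Nfkb2, which encodes p100, read 8.15, 8.27, 7.99 and 8.41 in RIPK3 triple KO livers, against 6.75, 5.92, 6.07 and 5.94 in WT livers, and rose by 2.04 ± 0.18 (4.10-fold, adjusted p = 1.35e-05). Its partner Relb read 7.27, 6.95, 7.02 and 7.45 in RIPK3 triple KO livers, against 6.01, 5.01, 5.21 and 5.12 in WT livers, and rose by 1.83 ± 0.30 (3.57-fold, adjusted p = 0.00465). Neither pair of groups overlapped. The cIAP genes rose as well: Birc3 by 1.76 ± 0.21 (3.39-fold, adjusted p = 0.000322) and Birc2 by 1.06 ± 0.12 (2.09-fold, adjusted p = 0.000168). Ltb, a ligand of the lymphotoxin β receptor, was at 7.10 ± 0.29 in RIPK3 triple KO livers and 5.68 ± 0.57 in WT livers and rose by 1.42 ± 0.25 (adjusted p = 0.00822). Map3k14, the gene of NIK, rose by 0.61 ± 0.12 (adjusted p = 0.0156), a call that was lost without WT replicate 2, 3 or 4 (adjusted p up to 0.0561). The count of rises, Traf2 included, stayed at 6 or 7 with each array left out. The median of 0.61 also includes Traf2. In the plot of 12 genes by array, Nfkbie, Nfkb2 and Tnfaip3 stand above WT on all 4 RIPK3 triple KO arrays.

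The promoters of the NF-κB genes that passed were searched for the κB consensus, a 10-base motif bound by NF-κB dimers, on both strands, in the window of 250 bases before to 50 after each start in RefSeq's GRCm38.p6 annotation. Among the 17 members of the 3 NF-κB lists that passed, 15 had a promoter in the table and 6 of those held a match. Among list members that did not pass, 13 of 36 with a promoter held one. Over all 27025 genes with a promoter, the share was 5.14%. The stretches around the matches are shown for these 6 genes so that the matched letters can be read; the other 9, among them Birc2, Birc3 and Icam1, held no match and are not shown. Each is read 5′ to 3′ on the gene's strand, with 25 bases on each side of the outermost match. Capitals mark the bases covered by a match, and matches that overlap run together.
Nfkbie, chr17:45555569-45555628, plus strand: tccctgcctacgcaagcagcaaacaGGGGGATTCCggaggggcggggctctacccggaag
Tnfaip3, chr10:19015388-19015560, minus strand: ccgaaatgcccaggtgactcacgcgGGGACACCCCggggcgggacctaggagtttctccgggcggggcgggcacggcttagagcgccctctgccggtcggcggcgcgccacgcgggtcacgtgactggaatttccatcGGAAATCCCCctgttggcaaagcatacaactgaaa
Tnip1, chr11:54962962-54963023, minus strand: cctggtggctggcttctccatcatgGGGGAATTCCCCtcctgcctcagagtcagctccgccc
Nfkb2, chr19:46304673-46304760, plus strand: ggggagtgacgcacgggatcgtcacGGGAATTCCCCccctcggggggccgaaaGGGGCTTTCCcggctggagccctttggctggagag
Ltb, chr17:35194395-35194454, plus strand: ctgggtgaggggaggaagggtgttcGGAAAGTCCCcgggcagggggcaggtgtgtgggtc
Ubd, chr17:37193852-37193911, plus strand: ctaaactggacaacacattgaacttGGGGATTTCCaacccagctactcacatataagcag
Counted from the start of the gene, the match lies at −15 in Ubd, at −106 in Nfkbie and at −87 in Ltb. Nfkb2 and Tnfaip3 each hold matches at separate places. A match is a description of these letters, not a site shown to be bound in these livers.

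Other transcripts that NF-κB is known to induce were counted apart from the NF-κB lists above and from chemokines. In this remaining list, 14 genes differed from WT by more than 0 and 11 by less. Of 25 response genes other than chemokines, 3 rose and 1 fell, and the median difference was 0.09. Besides Ubd, Icam1, the adhesion molecule for leukocyte integrins, rose by 1.34 ± 0.18 (8.62 ± 0.15 in RIPK3 triple KO livers and 7.28 ± 0.33 in WT livers, adjusted p = 0.000763). Il1rn, the interleukin-1 receptor antagonist, rose by 1.47 ± 0.30 (adjusted p = 0.0172) with groups that overlapped, and the call failed without replicate 3 of either group (adjusted p up to 0.0612). Gadd45b, a stress-response gene, fell by 1.18 ± 0.27 (adjusted p = 0.0334), a call lost with any of 5 arrays left out: RIPK3 triple KO replicates 1, 2 and 3 and WT replicates 2 and 4 (adjusted p up to 0.11). Tnf itself was at 5.11 ± 0.38 in RIPK3 triple KO livers and 5.21 ± 0.30 in WT livers (adjusted p = 0.918).

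Among 25 chemokines, 5 rose, and the same 5 passed with each of the 8 arrays left out. Cxcl10, a ligand of CXCR3 on T and NK cells, read 9.16, 9.16, 8.80 and 10.14 in RIPK3 triple KO livers, against 7.58, 6.92, 6.69 and 7.15 in WT livers, and rose by 2.23 ± 0.34 (4.69-fold, adjusted p = 0.00265). Its relative Cxcl9 rose by 0.71 ± 0.13 (adjusted p = 0.00822). Cx3cl1, the membrane-bound fractalkine, rose by 1.33 ± 0.14 (2.52-fold, adjusted p = 0.000113). Ccl20, a ligand of CCR6, rose by 1.14 ± 0.21 (adjusted p = 0.00919), and Ccl9, a macrophage-attracting chemokine, by 0.90 ± 0.09 (adjusted p = 3.83e-05). The groups did not overlap for these 5 chemokines. Ccl2, the main attractant of monocytes, was at 4.90 ± 0.10 in RIPK3 triple KO livers and 4.60 ± 0.20 in WT livers (adjusted p = 0.487).

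Death and TNF family genes were counted beside the 3.11% of all genes that passed. Of 25 genes of the death complex and of necroptosis, the deleted Casp8 and Ripk3 were the 2 that passed, both lower. Mlkl, the executioner of necroptosis downstream of RIPK3, was at 7.19 ± 0.18 in RIPK3 triple KO livers and 6.97 ± 0.24 in WT livers (adjusted p = 0.625). Of 28 TNF ligands and receptors, Tnfrsf10b, the TRAIL death receptor, rose by 0.86 ± 0.18 (adjusted p = 0.0196). That call failed without replicate 1 or 2 of RIPK3 triple KO or WT replicate 4 (adjusted p up to 0.0583).

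Interferon-stimulated genes had a median difference of −0.22 over 27 members, with 1 rise and 1 fall. Samd9l, an interferon-induced restraint on cell growth, read 5.87, 4.23, 4.37 and 3.70 in RIPK3 triple KO livers, against 6.94, 6.35, 6.63 and 6.97 in WT livers, and fell by 2.18 ± 0.34 (4.53-fold, adjusted p = 0.00286). The RIPK3 triple KO arrays had an SD of 0.93, and each lay below all WT arrays. Ddx58, the RNA sensor RIG-I, rose by 0.55 ± 0.13 (adjusted p = 0.0357), a call lost without replicate 1, 2 or 3 of RIPK3 triple KO or WT replicate 2 or 3 (adjusted p up to 0.111). Of 8 genes of MHC class II presentation, Cd74, the invariant chain, rose by 1.45 ± 0.16 (2.73-fold, adjusted p = 0.000132).

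Several transcripts more familiar from other epithelia rose several-fold. Wif1, a secreted inhibitor of Wnt proteins, read 10.49, 10.53, 10.60 and 10.16 in RIPK3 triple KO livers, against 6.12, 6.04, 6.67 and 6.87 in WT livers, a rise of 4.02 ± 0.21 (16.2-fold, adjusted p = 8.23e-08). Tff3, a trefoil peptide of goblet cells, read 8.84, 9.10, 8.64 and 9.88 in RIPK3 triple KO livers, against 6.10, 6.23, 5.69 and 5.68 in WT livers, a rise of 3.19 ± 0.25 (9.13-fold, adjusted p = 4.41e-06). Guca2b, the gut peptide uroguanylin, read 7.75, 7.86, 8.10 and 8.73 in RIPK3 triple KO livers, against 4.57, 4.74, 4.87 and 4.39 in WT livers, a rise of 3.46 ± 0.35 (adjusted p = 5.92e-05). None of these groups overlapped. Dsg1c, a desmosomal cadherin, rose by 2.55 ± 0.27 (5.86-fold, adjusted p = 8.49e-05).

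**Figure D2:**
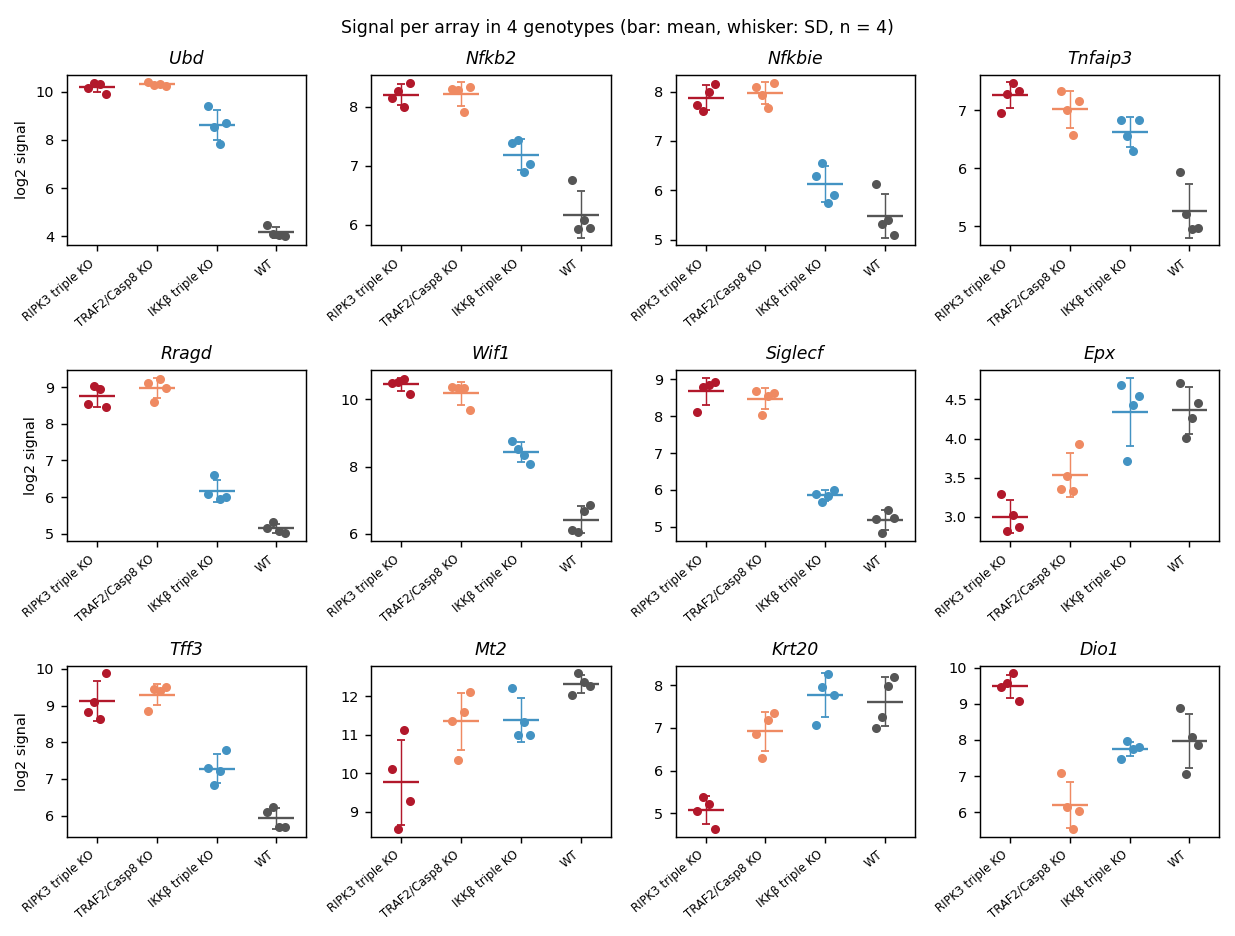
Log2 signal (y axis) of 12 genes on each of the 16 arrays, by genotype (x axis), with bars at the mean and whiskers of 1 SD (n = 4). The 4 RIPK3 triple KO points lie above all 4 WT points for Ubd, Nfkb2, Nfkbie, Tnfaip3, Rragd, Wif1, Siglecf, Tff3 and Dio1, and below them for Epx, Mt2 and Krt20.

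The lists behind these genes moved less than the genes themselves. Of 20 intestinal-type genes, 3 rose (Tff3, Guca2b and Vil1) and the median difference was −0.02. Vil1, an actin-bundling protein of brush borders, rose by 0.59 ± 0.14 (adjusted p = 0.049), and that call held only without RIPK3 triple KO replicate 3. Of 19 Wnt target and zonation genes, Wif1 was the 1 that passed, with a median of −0.07. Of 19 biliary and progenitor genes, 4 rose, 1 fell and the median was 0.34. Sox9, the transcription factor of bile duct progenitors, read 6.57, 6.81, 6.61 and 6.65 in RIPK3 triple KO livers, against 5.80, 5.18, 5.73 and 5.51 in WT livers, and rose by 1.10 ± 0.15 (adjusted p = 0.00072). Bicc1, an RNA-binding protein mutated in cystic disease models, rose by 0.83 ± 0.12 (adjusted p = 0.00187), and its other probe set differed by −0.03 without passing. Sox9 and Bicc1 passed with each array left out. The rises of Pkhd1, the gene of fibrocystin, by 0.63 ± 0.13 (adjusted p = 0.0228), and of Epcam, an epithelial adhesion molecule, by 0.67 ± 0.16 (0.0461) failed without replicate 1, 2 or 3 of RIPK3 triple KO or 2 or 3 of WT, where the count of rises was 2; that of Epcam also failed without WT replicate 1.

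Of 11 keratins of simple and stressed epithelium, 1 rose and 1 fell. Krt20, an intermediate filament of intestinal surface epithelium, read 5.04, 5.38, 5.22 and 4.63 in RIPK3 triple KO livers, against 7.00, 7.26, 7.99 and 8.21 in WT livers, and fell by 2.55 ± 0.31 (5.85-fold, adjusted p = 0.000341). Krt23, a keratin of bile ducts and injured liver counted above with the biliary genes, was at 4.79 ± 0.14 in RIPK3 triple KO livers and 6.44 ± 0.44 in WT livers and fell by 1.64 ± 0.34 (adjusted p = 0.0198). The Krt23 call was lost without replicate 3 of RIPK3 triple KO or WT replicate 2 or 3 (adjusted p up to 0.0703). Krt222 rose by 0.61 ± 0.10 (adjusted p = 0.00604), and the median of the keratin list was −0.07. Of 23 fetal liver and liver cancer genes, Gpc3, a heparan sulfate proteoglycan of fetal liver, rose by 0.50 ± 0.09 (adjusted p = 0.0108). Afp, the fetal albumin homologue, was at 12.36 ± 0.20 in RIPK3 triple KO livers and 12.59 ± 0.34 in WT livers (adjusted p = 0.505).

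Hepatocyte metabolic genes moved in opposite directions within single families. Ces3a, a liver carboxylesterase that hydrolyses triglyceride, read 11.93, 12.33, 12.39 and 11.89 in RIPK3 triple KO livers, against 6.67, 7.45, 9.22 and 8.52 in WT livers, and rose by 4.17 ± 0.50 (18.0-fold, adjusted p = 0.000288). The RIPK3 triple KO arrays lay close together for Ces3a, with an SD of 0.26, while the WT arrays had an SD of 1.13. Of 14 carboxylesterases, 3 rose and 3 fell. Ces3b rose by 1.72 ± 0.14 (3.31-fold, adjusted p = 5.65e-06) and Ces2g by 1.16 ± 0.21 (2.23-fold, adjusted p = 0.00927), while Ces1f fell by 1.56 ± 0.23 (2.95-fold, adjusted p = 0.00166). The falls of Ces1d, by 0.70 ± 0.16, and of Ces1e, by 0.80 ± 0.20, failed without replicate 1, 2 or 4 of RIPK3 triple KO or WT replicate 2, 3 or 4, where 1 carboxylesterase was lower. Members of these gene clusters, and of the Cyp2b and Ear families below, resemble each other, and cross-hybridisation between them was not tested.

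Among 31 cytochrome P450 genes of drug metabolism, 2 rose and 1 fell. Cyp2b10, the classic target of the nuclear receptor CAR, read 4.29, 4.13, 4.90 and 4.82 in RIPK3 triple KO livers, against 6.52, 6.20, 6.42 and 6.02 in WT livers, and fell by 1.76 ± 0.22 (3.38-fold, adjusted p = 0.00041). Its neighbour Cyp2b13 rose by 1.99 ± 0.40 (3.97-fold, adjusted p = 0.0172), a call lost without replicate 1 or 3 of RIPK3 triple KO or WT replicate 2 (adjusted p up to 0.0577). Cyp2c70, which makes the muricholic bile acids of mice, rose by 0.43 ± 0.08 (adjusted p = 0.00842). Of 25 conjugating enzymes, 0 passed in limma, and 5 had an unadjusted p under 0.05. Over all 18820 genes, 1470 were higher and 1459 lower at that unadjusted p. Of 19 organic ion transporters, 1 rose and 2 fell, with a median of −0.05. Slc22a26, of the organic anion transporter family, was at 4.90 ± 0.40 in RIPK3 triple KO livers and 7.22 ± 0.66 in WT livers. It fell by 2.32 ± 0.35 (4.98-fold, adjusted p = 0.00225). Slco2b1 fell by 0.91 ± 0.20 (adjusted p = 0.0274) and Slco2a1 rose by 0.68 ± 0.14 (0.0164). Each of these 2 calls was lost with some single arrays left out (adjusted p up to 0.0934 and 0.0527).

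Bile acid and amino acid genes were counted beside the 1.94% of all genes that passed higher. Baat, which conjugates bile acids with taurine or glycine, read 8.78, 9.01, 9.19 and 8.99 in RIPK3 triple KO livers, against 6.65, 6.17, 6.01 and 6.03 in WT livers, and rose by 2.78 ± 0.17 (6.86-fold, adjusted p = 4.77e-07). Cyp7a1, the rate-limiting enzyme of bile acid synthesis, was at 8.52 ± 0.95 in RIPK3 triple KO livers and 7.83 ± 0.16 in WT livers (adjusted p = 0.57). Of 22 bile acid genes, 2 rose, the other being Cyp7b1, by 0.95 ± 0.23, a call that held only without RIPK3 triple KO replicate 4. Among 27 genes of amino acid breakdown and the urea cycle, 2 rose: Prodh, proline dehydrogenase, by 1.00 ± 0.19 (adjusted p = 0.011), and Cth, which makes cysteine from cystathionine, by 0.94 ± 0.18 (adjusted p = 0.0131). Both passed with each array left out.

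Genes of lipid synthesis and oxidation that passed were lower. Of 25 sterol and fatty acid synthesis genes, 2 fell, with a median of −0.28: Hmgcs1, an early enzyme of cholesterol synthesis, by 0.62 ± 0.12 (adjusted p = 0.0165), and Srebf2, the regulator of that pathway, by 0.41 ± 0.09 (adjusted p = 0.0272). Of 24 fatty acid oxidation and ketogenesis genes, 3 fell, with a median of −0.22: Fabp1, a fatty acid carrier, by 0.45 ± 0.10 (adjusted p = 0.0235), Acadl, an acyl-CoA dehydrogenase, by 0.41 ± 0.09 (0.0328), and Plin2, a lipid droplet coat protein, by 0.58 ± 0.14 (0.0388). These counts rest on single arrays. At an unadjusted p under 0.05 with all arrays, 7 synthesis and 10 oxidation genes were lower, beside 1459 of all 18820 genes. Without WT replicate 3 or 4, none of either list passed in limma. The oxidation list also had none without WT replicate 2 or RIPK3 triple KO replicate 3, and 1 without RIPK3 triple KO replicate 4. The synthesis list had 1 without replicate 2 of either group and 4 without replicate 1 of either group. G0s2, an inhibitor of adipose triglyceride lipase, was at 7.98 ± 0.55 in RIPK3 triple KO livers and 9.42 ± 0.50 in WT livers and fell by 1.44 ± 0.27 (2.71-fold, adjusted p = 0.0112).

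Metal handling genes included 3 falls among 21, and at least these 3 passed with each array left out. Mt2, a metallothionein that binds zinc and copper, read 10.12, 8.56, 11.12 and 9.27 in RIPK3 triple KO livers, against 12.04, 12.60, 12.37 and 12.27 in WT livers, and fell by 2.55 ± 0.47 (5.87-fold, adjusted p = 0.00964). Mt1 read 10.53, 9.76, 11.48 and 10.39 in RIPK3 triple KO livers, against 11.98, 12.73, 12.26 and 12.12 in WT livers, and fell by 1.73 ± 0.31 (3.32-fold, adjusted p = 0.00862). Replicate 3 was the highest and replicate 2 the lowest RIPK3 triple KO array for both metallothioneins. The zinc exporter Slc30a1 fell by 0.80 ± 0.12 (1.74-fold, adjusted p = 0.00267).

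Secreted and signalling proteins of the hepatocyte also differed. Serpina12, the serpin vaspin, read 7.07, 7.23, 7.08 and 7.47 in RIPK3 triple KO livers, against 3.34, 3.09, 3.25 and 3.92 in WT livers, and rose by 3.81 ± 0.22 (14.0-fold, adjusted p = 2.41e-07). Of 26 protease inhibitors, 4 rose, among them Serpina10, an inhibitor of coagulation factors, by 0.71 ± 0.10 (adjusted p = 0.00154) and Serpinb9, an inhibitor of granzyme B, by 0.57 ± 0.11 (adjusted p = 0.0113). Of 35 acute phase, complement and coagulation genes, 1 rose and 3 fell. Fga, the fibrinogen α chain, fell by 0.51 ± 0.10 (adjusted p = 0.0113) and passed with each array left out. Saa3, an inflammatory serum amyloid, fell by 1.15 ± 0.23 (adjusted p = 0.016), a call lost without replicate 2 of RIPK3 triple KO or WT replicate 3 (adjusted p up to 0.0551). Mbl2 fell by 0.80 ± 0.17 (adjusted p = 0.0198) and F7 rose by 0.45 ± 0.10 (0.024), and both calls failed without RIPK3 triple KO replicate 1 or WT replicate 2, 3 or 4. That of Mbl2 also failed without RIPK3 triple KO replicate 4, and that of F7 without replicates 2 or 3 of that group. The fall count was 1 without WT replicate 3.

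Rragd, a Rag GTPase that carries amino acid signals to mTORC1 at the lysosome, read 8.54, 9.03, 8.95 and 8.45 in RIPK3 triple KO livers, against 5.16, 5.32, 5.06 and 5.03 in WT livers. It rose by 3.60 ± 0.17 (12.1-fold, adjusted p = 3.61e-08). Lamp1, a lysosomal membrane protein, rose by 0.35 ± 0.07 (adjusted p = 0.0147), a call lost without replicate 3 of RIPK3 triple KO or WT replicate 3 or 4 (adjusted p up to 0.0556). The median over 20 genes of the Rag GTPase and TFEB axis was 0.07. Gem, a small GTP-binding protein, rose by 2.42 ± 0.31 (5.33-fold, adjusted p = 0.000641). Nr5a2, the nuclear receptor LRH-1, rose by 0.73 ± 0.11 (adjusted p = 0.00155) and was the 1 of 28 hepatocyte identity genes that passed. Falls were seen for Nrg4, a ligand of ErbB4, by 1.47 ± 0.21 (2.76-fold, adjusted p = 0.00155), and for Calml4, a calmodulin-like protein, by 1.66 ± 0.25 (3.16-fold, adjusted p = 0.00227). Clec2h, a lectin-like ligand of natural killer receptors, fell by 1.76 ± 0.38 (adjusted p = 0.0257), and that call failed without replicate 1 or 4 of RIPK3 triple KO or WT replicate 2, 3 or 4 (adjusted p up to 0.0878).

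Genes of growth, stress and timing were also counted, beside the 3.11% of all genes that passed. All 25 cell cycle genes were below 0, with a median of −0.20, and 1 passed: Ccnd1, the G1 cyclin, fell by 0.79 ± 0.12 (adjusted p = 0.0024). Mki67, the proliferation antigen, was at 9.19 ± 0.20 in RIPK3 triple KO livers and 9.54 ± 0.34 in WT livers (adjusted p = 0.566). Of 18 unfolded protein response genes, Sel1l, an adaptor of protein disposal from the endoplasmic reticulum, fell by 0.62 ± 0.09 (adjusted p = 0.00231). Of 18 YAP targets, 2 fell: Ajuba, a LIM protein, by 1.02 ± 0.20 (adjusted p = 0.0138), lost without WT replicate 4 (0.0501), and Nuak2, a kinase, by 0.44 ± 0.10 (0.0335), with overlapping groups. The Nuak2 call held only without RIPK3 triple KO replicate 2 or WT replicate 1. Ajuba lies on chromosome 14, as does the deleted Ripk3. In limma, 0 of 18 glucose metabolism, 0 of 19 growth hormone and IGF, 0 of 17 NRF2 target and 0 of 16 circadian clock genes passed. At an unadjusted p under 0.05 these 4 lists had 5, 7, 5 and 1 members, beside 1470 higher and 1459 lower of all 18820 genes.

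**Figure D3:**
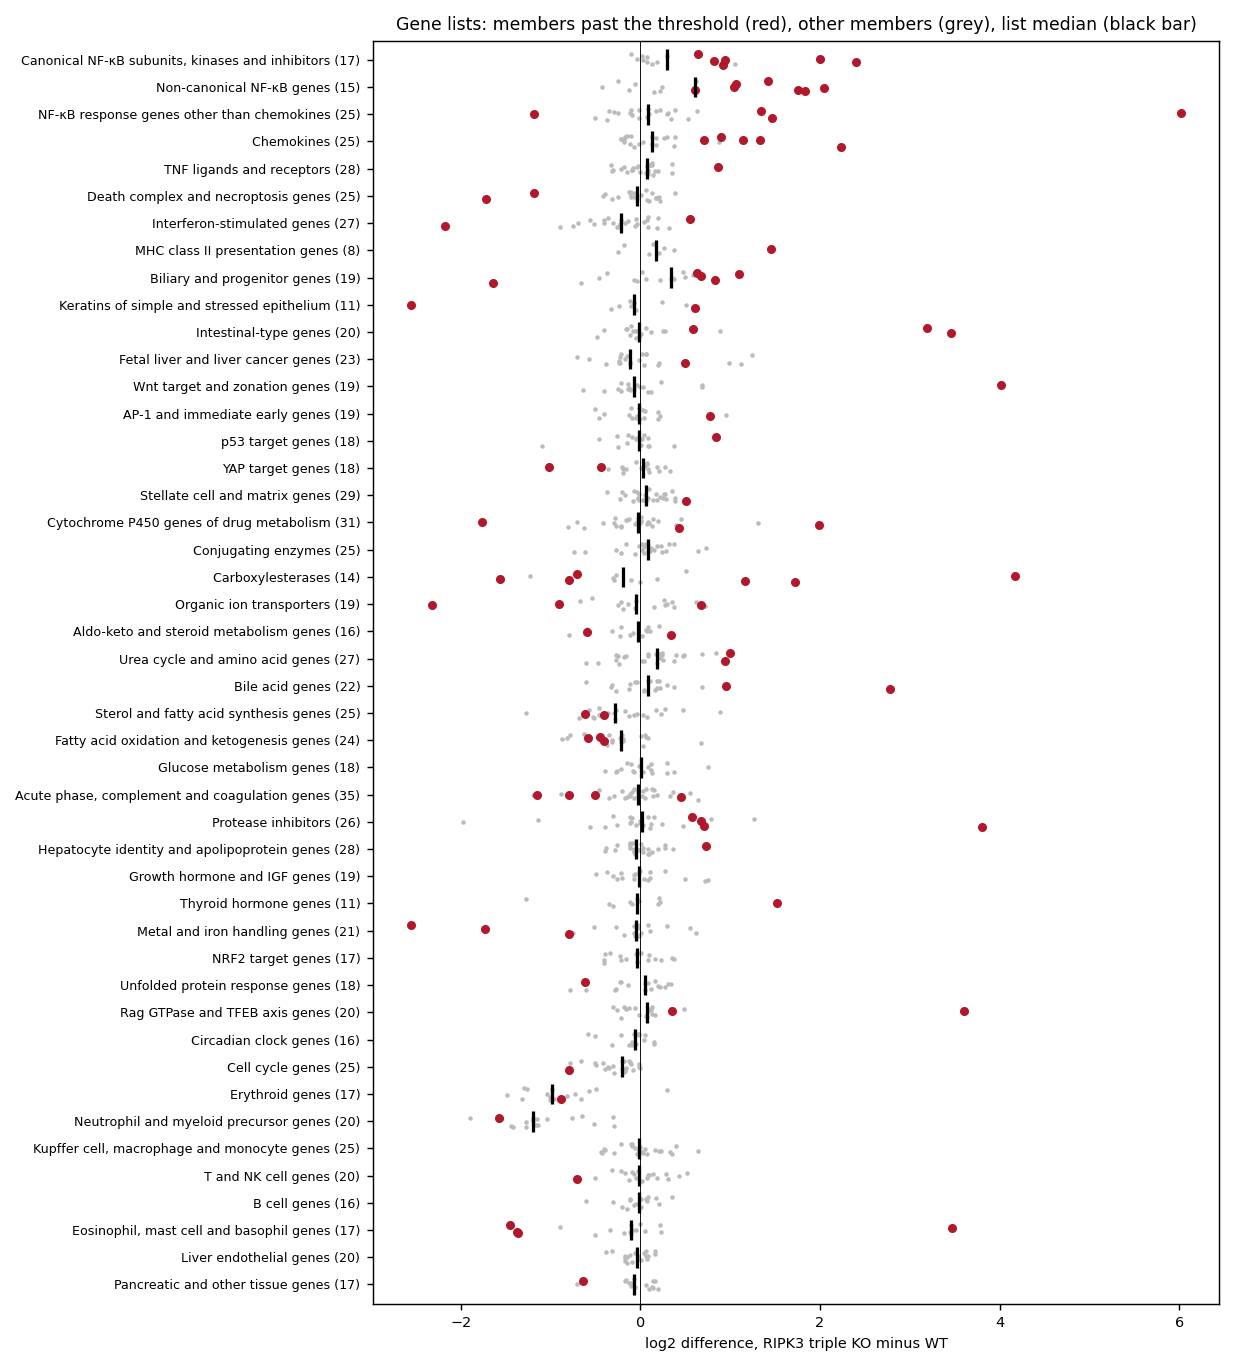
Difference in log2 signal, RIPK3 triple KO minus WT (x axis), for the measured members of 46 gene lists (rows), with genes past the threshold in red, others in grey and a black bar at each list's median. The median over the non-canonical NF-κB list is 0.61, over erythroid genes −0.98 and over neutrophil genes −1.19.

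Markers of cells other than hepatocytes were set beside these results. The mean signal of 17 erythroid genes was 5.28, 5.75, 5.63 and 7.18 in RIPK3 triple KO livers, against 6.62, 7.54, 6.65 and 6.61 in WT livers, with a median gene difference of −0.98. The mean of 20 neutrophil and myeloid precursor genes was 6.09, 6.59, 6.80 and 7.61 in RIPK3 triple KO livers, against 8.94, 7.76, 7.38 and 7.54 in WT livers, with a median of −1.19. In both lists RIPK3 triple KO replicate 4 overlapped with WT. At an unadjusted p under 0.05, 5 of the 17 and 16 of the 20 were lower, beside 1459 of all 18820 genes. A single gene passed in each list: Xk, an erythrocyte membrane protein, fell by 0.88 ± 0.18 (adjusted p = 0.0176), and Mmp8, the neutrophil collagenase, by 1.57 ± 0.38 (adjusted p = 0.049). The Xk call failed without replicate 1 or 3 of RIPK3 triple KO or WT replicate 2, 3 or 4, and the Mmp8 call held only without RIPK3 triple KO replicate 4. Without that array 10 of the 20 neutrophil genes were lower and the median was −1.5, and without WT replicate 1 none passed and the median was −0.85. Mpo, the myeloperoxidase of neutrophil granules, read 6.08, 6.87, 7.23 and 8.52 in RIPK3 triple KO livers, against 10.33, 8.94, 8.50 and 8.52 in WT livers (adjusted p = 0.115). The part of these cells in the falls named above was not tested.

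**Figure D4:**
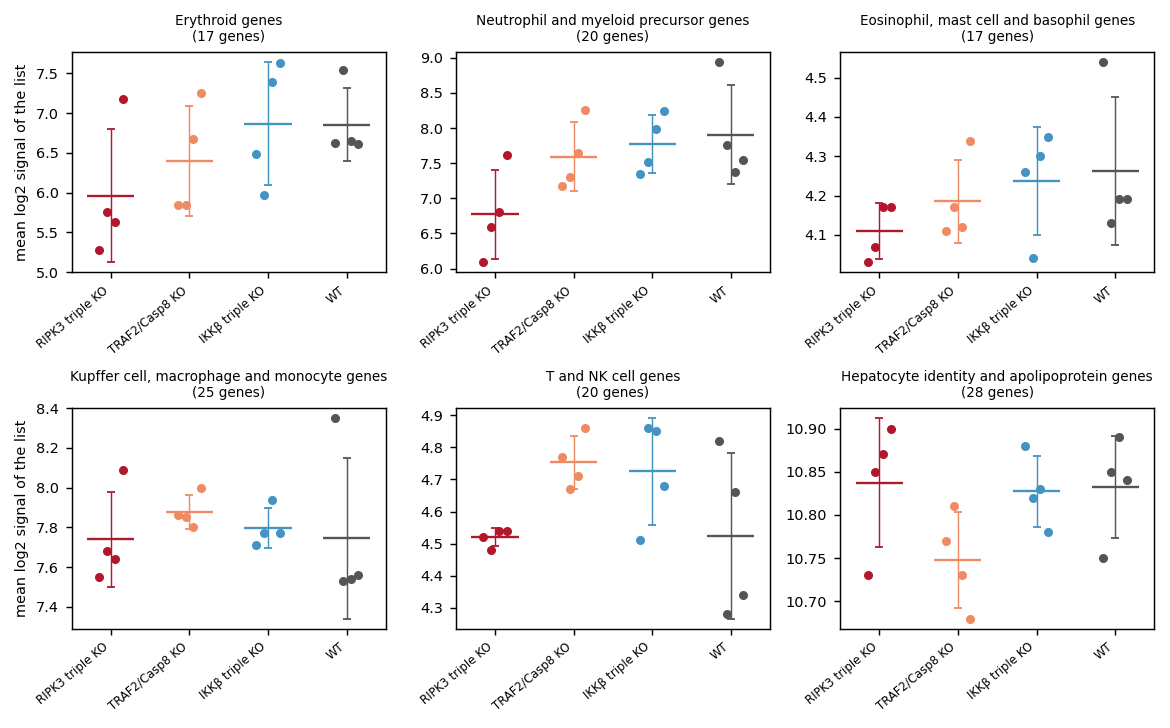
Mean log2 signal of 6 marker lists (y axis) on each array of the 4 genotypes (x axis), with bars at the group mean and whiskers of 1 SD (n = 4). The erythroid and neutrophil means are lowest on RIPK3 triple KO replicates 1 to 3, and the hepatocyte means lie between 10.73 and 10.90 on the 4 RIPK3 triple KO arrays.

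Eosinophil genes did not move together. Siglecf, a sialic acid-binding receptor that marks mouse eosinophils, read 8.12, 8.78, 8.84 and 8.92 in RIPK3 triple KO livers, against 5.21, 4.83, 5.47 and 5.25 in WT livers, and rose by 3.47 ± 0.19 (11.1-fold, adjusted p = 8.83e-08). Epx, the eosinophil peroxidase, read 3.29, 2.82, 3.02 and 2.87 in RIPK3 triple KO livers, against 4.71, 4.01, 4.26 and 4.46 in WT livers, and fell by 1.36 ± 0.21 (2.57-fold, adjusted p = 0.00252). Ear6, an eosinophil ribonuclease, fell by 1.37 ± 0.25 (adjusted p = 0.00973). These 3 genes passed with each array left out. Prg2, the major basic protein of eosinophil granules, fell by 1.45 ± 0.31 (adjusted p = 0.0227), a call lost without replicate 1, 2 or 3 of RIPK3 triple KO or WT replicate 3 (adjusted p up to 0.0777). Ccr3, the eotaxin receptor, was at 3.36 ± 0.24 in RIPK3 triple KO livers and 3.35 ± 0.26 in WT livers, and Il5ra, the interleukin-5 receptor, at 2.26 ± 0.07 and 2.30 ± 0.13. Thus 1 of 17 eosinophil, mast cell and basophil genes rose and 3 fell, with a median of −0.10.

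Counts for other cell types stand beside the 3.11% of all genes that passed. Of 20 T and NK cell genes, Gzma, the granzyme A protease, fell by 0.70 ± 0.12 (adjusted p = 0.00448). Of 25 Kupffer cell, macrophage and monocyte genes, 0 passed in limma and 1 had an unadjusted p under 0.05. Clec4f, the lectin of mouse Kupffer cells, was at 10.10 ± 0.04 in RIPK3 triple KO livers and 10.07 ± 0.31 in WT livers (adjusted p = 0.94). Of 20 liver endothelial genes and 16 B cell genes, 0 passed, and 2 and 0 had an unadjusted p under 0.05. Of 29 stellate cell and matrix genes, Col6a3, a collagen VI chain, rose by 0.51 ± 0.12 (adjusted p = 0.0328), a call lost without replicate 1, 2 or 3 of RIPK3 triple KO or WT replicate 3 or 4 (adjusted p up to 0.079). Cela1, a pancreatic-type elastase, fell by 0.64 ± 0.09 (adjusted p = 0.00158) and was the 1 of 17 genes of pancreas and other tissues that passed.

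The same genes were read in the other genotypes, whose comparisons use the same 4 WT arrays, so the values stand side by side only. For 3 NF-κB genes among the largest rises, the differences from WT in RIPK3 triple KO, TRAF2/Casp8 KO and IKKβ triple KO livers were 6.02, 6.15 and 4.45 for Ubd, 2.40, 2.49 and 0.64 for Nfkbie, and 2.04, 2.05 and 1.01 for Nfkb2. They were 2.00, 1.76 and 1.37 for Tnfaip3 and 2.23, 3.02 and 2.66 for Cxcl10. For Rragd and Siglecf, which are on no NF-κB list, they were 3.60, 3.83 and 1.01, and 3.47, 3.29 and 0.66. Set directly against IKKβ triple KO, 2 of 17 canonical genes, 5 of 15 non-canonical genes, 2 of 25 response genes and 4 of 25 chemokines were higher in RIPK3 triple KO livers, and 1 response gene, Gadd45b, was lower. Of these, the calls of Traf2, Ltb, Icam1, Gadd45b, Ccl20 and Cxcl9 were each lost with at least 1 single array left out (adjusted p up to 0.114). Both canonical genes, Nfkbie and Ikbkb, passed with each array left out, and Ikbkb is the gene targeted in the IKKβ triple KO mice. The differences were 1.57 for Ubd (adjusted p = 0.0033), 1.75 for Nfkbie (0.00082), 1.02 for Nfkb2 (0.0107), 2.58 for Rragd (1.61e-06) and 2.81 for Siglecf (1.61e-06), and these 5 calls held with each array left out. Other NF-κB genes did not pass in that comparison: Tnfaip3 differed by 0.63 (adjusted p = 0.174), Tnip1 by 0.63 (0.136), Ikbke by 0.38 (0.366) and Cxcl10 by −0.43 (0.616). Directly against TRAF2/Casp8 KO, the differences of Ubd, Nfkbie, Nfkb2, Rragd and Siglecf ran from −0.23 to 0.19 and did not pass. The array names place all IKKβ triple KO arrays in plate column 5 with WT, and all TRAF2/Casp8 KO arrays in column 7 with RIPK3 triple KO, so plate column and genotype cannot be told apart in the comparison with IKKβ triple KO either. Over all genes, 377 of 18820 (2.00%) passed between RIPK3 triple KO and IKKβ triple KO, 259 higher and 118 lower.

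**Figure D5:**
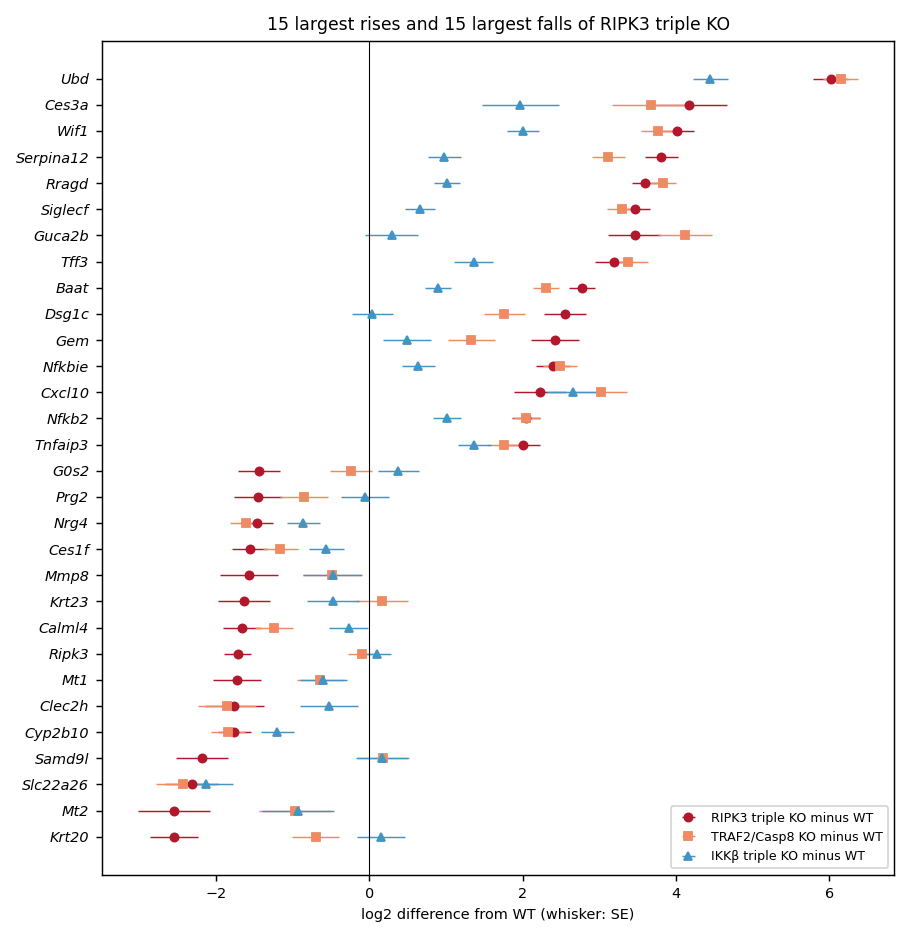
Difference in log2 signal from WT (x axis, ± SE) of the 15 largest rises and 15 largest falls, in RIPK3 triple KO (red circles), TRAF2/Casp8 KO (orange squares) and IKKβ triple KO livers (blue triangles), which share the 4 WT arrays. For Ripk3, Krt20, Krt23 and Samd9l the RIPK3 triple KO point lies at −1.64 or lower, and the points of the other genotypes lie between −0.70 and 0.18.

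Directly against TRAF2/Casp8 KO, 62 of 18820 genes passed (0.329%), 34 higher and 28 lower in RIPK3 triple KO livers. Over probe sets the split was 47 higher and 47 lower, and 77 and 45 with arrays centred on their medians. With predicted, small RNA, olfactory, vomeronasal and antigen receptor segment genes left out, 31 genes passed both there and against WT. Samd9l read −2.36 relative to TRAF2/Casp8 KO livers (adjusted p = 0.00743) and passed with each array left out. Among the higher genes, Tcea3, a transcription elongation factor, read 8.73, 8.90, 8.80 and 8.75 in RIPK3 triple KO livers, against 7.74, 7.62, 7.66 and 7.61 in WT livers. It exceeded TRAF2/Casp8 KO by 1.17 (adjusted p = 1.69e-05), IKKβ triple KO by 1.40 (1.68e-06) and WT by 1.14 (1.09e-05). Colgalt2, a collagen galactosyltransferase, exceeded the same 3 groups by 1.5, 1.73 and 1.60, and Gdpd3, a lysophospholipase, by 1.56, 1.81 and 1.63, with adjusted p of at most 0.00871. The difference from WT was 0.07 for Gdpd3 and 0.10 for Colgalt2 in TRAF2/Casp8 KO livers, and −0.03 for Tcea3.

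Dio1, the deiodinase that activates thyroid hormone in liver, read 9.47, 9.57, 9.84 and 9.07 in RIPK3 triple KO livers, against 8.87, 7.06, 8.09 and 7.85 in WT livers. Its rise of 1.52 ± 0.34 over WT (adjusted p = 0.0305) held only without RIPK3 triple KO replicate 4 or WT replicate 1, and reached 0.0935 without another array. None of 10 further thyroid hormone genes passed, and the list's median was −0.04. In TRAF2/Casp8 KO livers Dio1 was at 6.20 ± 0.65, a difference from WT of −1.77 (limma adjusted p = 0.0117).

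Genes that lie beside Ripk3 on chromosome 14 were counted as well. Of the 20 measured genes nearest to Ripk3, 10 on each side, 2 passed, both lower. Over all genes, 1.16% passed lower. Dhrs1, a short-chain dehydrogenase, fell by 0.51 ± 0.09 (adjusted p = 0.00966), and Tgm1, a transglutaminase, by 0.71 ± 0.16 (adjusted p = 0.0326). In TRAF2/Casp8 KO livers, which keep Ripk3, the difference from WT was −0.56 for both. The Tgm1 call was lost without replicate 1, 3 or 4 of either group (adjusted p up to 0.0977). Outside these 20 genes, Ajuba lies on chromosome 14 too, as do other named genes. Its difference from WT was −1.02 in RIPK3 triple KO, 0.37 in TRAF2/Casp8 KO and 0.09 in IKKβ triple KO livers. Over chromosome 14, 3.19% of genes passed. Whether its place on the chromosome of Ripk3 bears on the fall of Ajuba was not tested.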

How the data were processed

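Whole-transcript Affymetrix arrays were hybridised with 100 ng of total RNA from 16 livers, 4 mice per genotype, accepted at an RNA integrity number above 8.0, per the labels' protocols. The deposited values are log2 signals after RMA, per the submitters' processing notes; the sources used here name neither the RMA software nor the probe set definitions. RMA summarises probes and equalises array distributions, which compresses large differences of dim genes. Values were used as deposited. All 35556 probe sets entered 1 linear model of 4 genotypes over 16 arrays (limma version 3.58.1 under R version 4.3.3, lmFit then eBayes, two-sided), with Benjamini-Hochberg adjustment over all probe sets and a threshold of 0.05. The platform annotation gave 21218 probe sets 1 symbol, 1881 several and 12457 none; a gene is its brightest probe set with 1 symbol. The fit was tested on simulated data. Files hold no probe-level background, so detection was not assessed; the number of arrays limits the precision. The members, the 46 gene lists (922 measured genes) and the tests were chosen with earlier results of these data known, and lists carry no test of their own. Genes are named if targeted, or if among the 15 strongest rises or 15 strongest falls with groups that do not overlap. Predicted, small RNA, olfactory, vomeronasal and antigen receptor segment genes were left out of these. Also named are up to 4 list members with the smallest adjusted p, or up to 2 as values where none passed. The 6 strongest rises and falls against TRAF2/Casp8 KO that also passed against WT are named, with the same kinds left out. Called neighbours of Ripk3 are named too. Other genes were named after their values were seen: Relb, Ltb, Map3k14, Nfkbib, Nfkbiz, Ccl20, Epcam, Ces1d and Ces1e to complete a count, and Nfkbia, Rel, Tnf, Mlkl, Ccl2, Afp, Alb, Cyp7a1, Mki67, Mpo, Clec4f, Ccr3 and Il5ra as values. Alternatives were the replicate number as a block, only the 2 groups compared, a trended prior, array weights, renewed quantile normalisation, median centring, no dimmest probe sets, 1 probe set per gene, a minimum fold of 1.5 and each array left out. Same-numbered RIPK3 triple KO and WT arrays correlated at −0.013, −0.004, 0.022 and −0.099 in their deviations from group means, so the numbers were not treated as pairs. Promoter sequences are RefSeq's, build GRCm38.p6.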

Additional observations from a re-analysis of the deposited data

Results flagged for a closer look

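Among 226 groups of 4 arrays checked over the named genes, 4 held an array whose gap to the nearest other exceeded Dixon's critical share of the group's range, fewer than the 1 in 20 that chance flags. Ubd read 4.49 on WT replicate 1 and 4.02 to 4.09 on the other WT arrays, and Clec2h read 5.51 on WT replicate 1 and 7.18 to 7.30 on the others. Nuak2 read 6.68 on RIPK3 triple KO replicate 2 and 6.40 to 6.43 on the others. Gclc, the catalytic subunit of glutathione synthesis, read 10.33 on RIPK3 triple KO replicate 4 and 10.88 to 10.99 on the others.

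RIPK3 triple KO livers were also set against TRAF2/Casp8 KO livers by the limma test of that difference. By the naming rule, 12 genes are listed: the 6 strongest rises and 6 strongest falls that also passed against WT. Other named genes passed too, among them Cyp2c70 by 0.68 (adjusted p = 0.000716) and Gzma by −0.62 (0.0383). Cyp2c70 passed with each array left out, while Gzma passed only without RIPK3 triple KO replicate 4. Of the 12, those higher in RIPK3 triple KO were Dio1 by 3.29, Gdpd3 by 1.56, Colgalt2 by 1.5, Tcea3 by 1.17, Cmtm8, a membrane protein of the MARVEL family, by 1.05 and Cth by 1.01. For Dio1 the difference from WT was 1.52 in RIPK3 triple KO and −1.77 in TRAF2/Casp8 KO livers. Lower were Samd9l (−2.36), Krt20 (−1.85), Krt23 (−1.81), Ripk3 (−1.62), Ajuba (−1.39) and Rpa3, a subunit of the DNA-binding replication protein A (−0.96). The other Rpa3 probe set differed from WT by −0.16 and did not pass. With 1 array left out, the test against TRAF2/Casp8 KO failed for Krt23 in all 8 cases (adjusted p up to 0.164). It failed for Krt20 without replicate 1, 3 or 4 of either group (up to 0.0893), and for Cth without replicate 2 or 4 of either group or replicate 3 of RIPK3 triple KO (up to 0.122). The remaining 9 of the 12 genes passed with each array left out.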

How the results depend on the processing

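None of the 97 named genes that passed against WT changed sign under the alternatives run, while some list medians within 0.08 of 0 did. These genes were picked for passing on the same arrays, so their kept signs are no independent support. More probe sets were higher than lower against WT in each setting. Against IKKβ triple KO the split of 388 higher and 179 lower turned to 19 and 32 with the replicate block and to 467 and 471 without IKKβ triple KO replicate 1. Against TRAF2/Casp8 KO the split of 47 and 47 became 4 and 10 with a minimum fold of 1.5 and 29 and 60 without TRAF2/Casp8 KO replicate 2. Against 845 probe sets between RIPK3 triple KO and WT, only the 2 groups gave 328, a minimum fold of 1.5 gave 50, and leaving out 1 array gave 425 to 1095. Against 94 between RIPK3 triple KO and TRAF2/Casp8 KO, these settings gave 40, 14 and 39 to 89. Against 567 between RIPK3 triple KO and IKKβ triple KO, they gave 232, 24 and 197 to 938, and array weights gave 875. The replicate block gave 77, 25 and 51 probe sets, and numbers did not pair the arrays. Fits on only the 2 groups, or with the block, keep fewer residual degrees of freedom. Of 97 named genes that passed against WT, 53 still passed with only the 2 groups, 24 with the block and 66 to 90 with 1 array left out. Counts of list members with each array left out were added after seeing the data. Probe-level background was not analysed here, so how far dim genes stand above it is unknown.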

Other observations

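Outside the naming rule, 9 of 9 probe sets that list the predicted gene Gm3893, alone or with other genes, passed lower against WT. The largest fall was −3.15. Whether these sets share target sequence was not tested, so they are not counted as separate readings. In all, 5 microRNA genes passed, chosen after their values were seen: Mir30c-2 (0.90), Mir200b (0.74), Mir501 (0.30) and Mir598 (0.28) were higher and Mir539 (−0.43) was lower. The array measures these loci in whole-transcript RNA, not as mature microRNAs. The share of genes that passed was 4.73% on chromosome 9, 4.49% on chromosome 4 and 4.26% on chromosome 8, beside 3.11% over all genes.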
